A study of Bubalus bubalis with 6 samples.

Results

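Genes of glucose uptake, glycolysis, lactate handling and pyruvate entry into mitochondria were examined in cultured buffalo (Bubalus bubalis) cells after transduction with a long non-coding RNA, lncFABP4. The set holds 37 genes chosen by name, and every gene model that carried such a name was kept. Of these genes, 33 had at least 1 model, giving 37 models among the 19476 of the deposited table, while no model carried the names SLC2A10, PFKFB2, PFKFB4 or ALDOC. There were 31 models, of 30 genes, that passed the filter of at least 1 FPKM (fragments assigned to a model, scaled by its length and by library size) in at least 3 of the 6 samples, and 6 models stayed below it. Over all genes, 11064 models passed.

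The cells are labelled intramuscular adipocytes, the fat cells that lie between muscle fibres. The 3 control samples are labelled wild type and received an adenovirus for EGFP, a green fluorescent protein. The other 3 received an adenovirus for lncFABP4 and are labelled as overexpressing it. All 6 were grown in medium with 20% fetal bovine serum, kept for 48 hours after transduction, given adipogenic inducing medium for 48 hours and collected on day 4. The comparison asked how gene expression during adipogenic differentiation differs when this RNA is overexpressed. The sources used here do not give the viral dose, the promoter that drives either insert or the number of animals. Cells were plated in triplicate and nothing says that the samples came from separate animals or cultures, so the p-values measure only the variation among these samples, which may be of technical origin.

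Glycolysis splits a glucose molecule into pyruvate through a chain of cytosolic enzymes. Pyruvate is then either reduced to lactate by lactate dehydrogenase and exported by monocarboxylate transporters, or oxidised to acetyl-CoA by the pyruvate dehydrogenase complex, which pyruvate dehydrogenase kinases switch off. In fat cells this route supplies the glycerol backbone of triglyceride and the acetyl-CoA for new fatty acids, and the insulin-regulated transporter GLUT4, encoded by SLC2A4, is a known feature of mature adipocytes.

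Column totals ranged from 340165 to 360920 FPKM. Read depth relative to EGFP replicate 1 was estimated at 0.981 to 1.01 in the EGFP samples. It was lower in every lncFABP4 sample, down to 0.923 in replicate 3. Estimated depth thus also differed with the groups, and its part in the results was not tested. FABP4 took 0.0437% to 0.0557% of the total in the EGFP samples and 1.80%, 3.03% and 3.41% in lncFABP4 replicates 1, 2 and 3, so replicate 1 was lowest of the 3; without it the members had 10 higher and 6 lower calls, as with it. Of 8 fat cell markers, 6 were listed and 4 reached 1 FPKM, and their sum, nearly all of it FABP4, was 166 to 214.5 FPKM in the EGFP and 6532 to 12030 FPKM in the lncFABP4 samples. The other 3 that reached 1 FPKM went both ways: PPARG was at 11.8 to 12.8 and 23.6 to 27.1 FPKM, CIDEC at 1.95 to 2.22 and 2.27 to 2.68 FPKM, and LPL at 2.34 to 3.60 and 0.903 to 1.18 FPKM. The defining genes CEBPA and ADIPOQ stayed at or below 0.190 and 0.0559 FPKM, and no model was named PLIN1 or LEP. The labelled cell type was thus only in part borne out by its markers. Summed skeletal muscle markers (5 of 8 listed, ACTA1, CKM and MYF5 under 1 FPKM) ranged from 4.52 to 5.13 FPKM in the EGFP and 2.27 to 3.13 FPKM in the lncFABP4 samples. Fibroblast and progenitor markers (5 of 5 listed) summed to 8032 to 8610 and 5178 to 5662 FPKM, endothelial markers (5 of 5) to 3.11 to 3.52 and 4.39 to 4.63 FPKM, and leukocyte markers (5 of 5) to 8.62 to 10.7 and 8.73 to 9.33 FPKM. These sums were mostly COL1A1 and DCN, VWF, and CD68, in that order. Among the fibroblast and progenitor markers, PDGFRB overlapped between the groups (35.2 to 47.9 and 30.4 to 46.9 FPKM), while PDGFRA and THY1 were lower after lncFABP4. The defining leukocyte gene PTPRC reached at most 0.0113 FPKM and the endothelial genes PECAM1 and CDH5 at most 0.0191 and 0.0679 FPKM. All these sums but that of the leukocyte markers, whose groups overlapped, moved with the groups beside every result that follows. Their part in the results was not tested. In such bulk samples, fewer cells of a type and less RNA per cell cannot be told apart.

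After lncFABP4 transduction, the upper glycolysis genes HK1 and TPI1 and 3 enzyme genes of lower glycolysis were higher. So were the more abundant lactate dehydrogenase gene and subunits of pyruvate dehydrogenase. Lower in turn were GAPDH and ENO2 (both also of lower glycolysis), the main glucose transporter, the lactate carrier SLC16A1, the glycolytic activator PFKFB3 and the pyruvate dehydrogenase kinase PDK4. Of the 31 tested models 10 rose (32.3%, beside 16.5% of all 11064 models) and 6 fell (19.4%, beside 10.2% of all models), by limma at a Benjamini-Hochberg adjusted p under 0.05. Nothing particular to these genes is drawn from such counts. The groups did not overlap, with lncFABP4 samples above, in 11 of the 31 (beside 26.6% of all models) and, with lncFABP4 samples below, in 8 (beside 17.2%). The median change of the 31 was -0.013 and that of all models 0.049 on the log2(FPKM + 1) scale, on which all changes below are given and which understates those of low genes. Without replicate number 3 of both groups 1 model was called higher and 2 lower. Leaving out a single library gave 6 to 10 higher, with 6 when EGFP replicate 3, lncFABP4 replicate 2 or lncFABP4 replicate 3 was left out, and 4 to 6 lower, with 4 when EGFP replicate 1 or 3 was left out. Across all genes 61.8% of the calls were higher, against 49.2% with TMM and with median-of-ratios factors, and 50.8% with quantile scaling; the members then had 8 models higher in each case, and 6, 6 and 5 lower. These scalings moved the median of all models to -0.0014, -0.0012 and 0.0066.

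**Figure D1:**
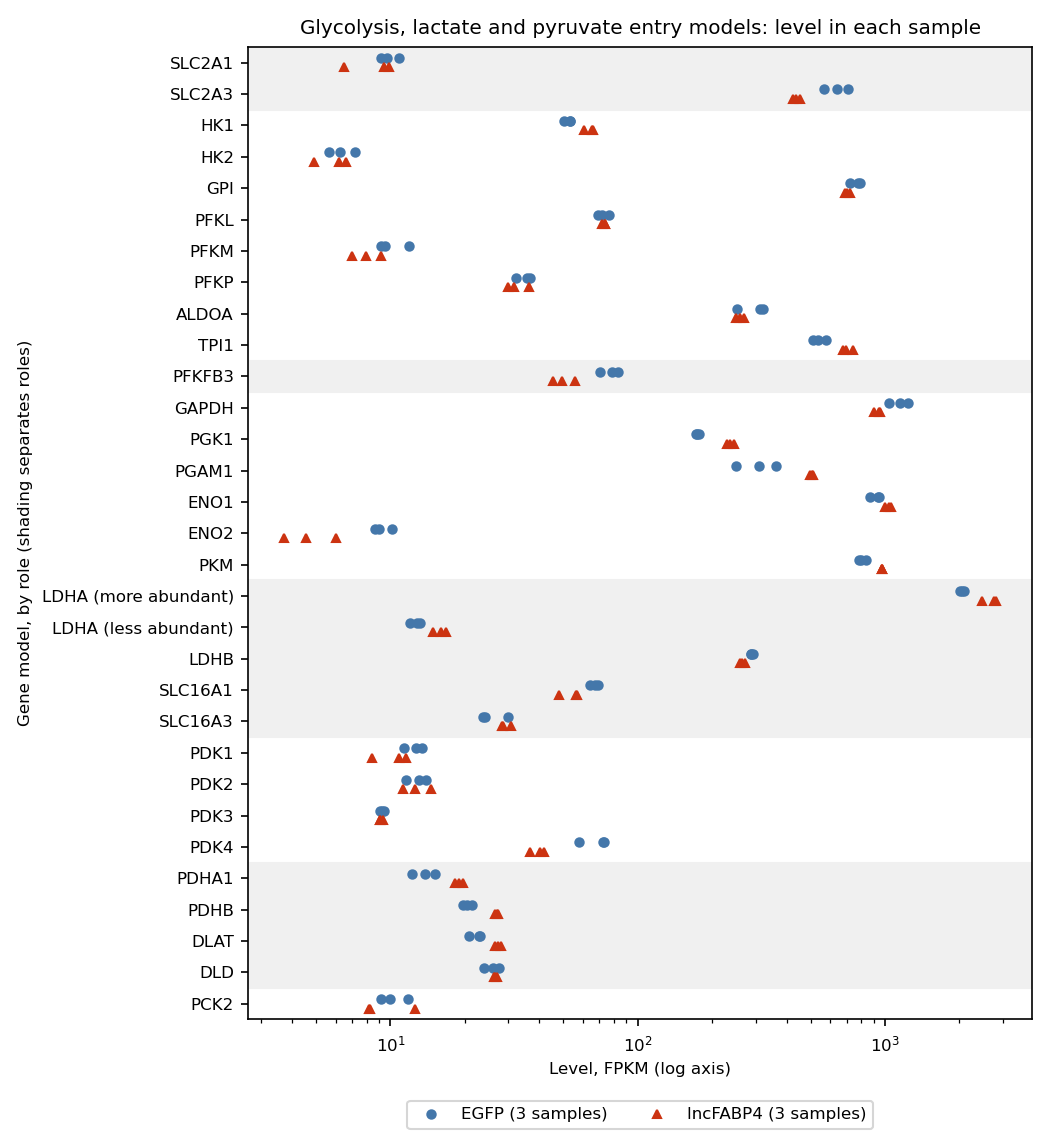
Level of each of the 31 tested models in each sample, in FPKM on a log axis, with 3 EGFP samples (circles) and 3 lncFABP4 samples (triangles) and shading by role. Levels run from ENO2 at 3.71 to 10.1 FPKM and HK2 at 4.92 to 7.21 FPKM up to the more abundant LDHA model at 2005 to 2819.9 FPKM.

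The route was abundant as a whole. Members summed to 2.35% to 2.49% of all FPKM in controls, against 2.50% to 2.67% in the lncFABP4 samples. LDHA, which encodes the lactate dehydrogenase subunit that favours lactate formation, ranked 10 among all 11064 models by mean level, followed among members by GAPDH (rank 29), ENO1 (31), PKM (39), GPI (51), TPI1 (66) and SLC2A3 (75). At the other end, HK2 (rank 6897) and ENO2 (6445) were low, and SLC2A4, SLC2A12 and PCK1 were under the filter.

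Glucose enters through the GLUT transporters. SLC2A3, which encodes the high-affinity transporter GLUT3, was the main one by level, at 639.7, 707 and 565 FPKM in controls, against 425, 454 and 436 FPKM after lncFABP4. All 3 lncFABP4 samples lay below all 3 controls. Its mean fell from 637 ± 71.0 to 438 ± 14.9 FPKM (SD, n = 3 each), or -0.53 on the log2 scale (SE 0.09; limma adjusted p = 0.00418), and the call held when any single library was left out. SLC2A1, the gene of the widespread transporter GLUT1, stood at 9.20 to 10.8 FPKM in the EGFP and 6.47 to 9.84 FPKM in the lncFABP4 samples. These groups overlapped, and its change of -0.20 (95% interval from -0.54 to 0.13, limma adjusted p = 0.327) was not called.

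The transporters of insulin-responsive tissue were barely detected. SLC2A4 was listed at 0.627, 0.536 and 0.469 FPKM in controls, against 0.604, 0.357 and 0.431 FPKM in the lncFABP4 samples, below the filter in each. SLC2A12, another transporter linked to insulin-sensitive tissues, was listed at 0.123, 0.0138 and 0 FPKM in controls, against 0.0430, 0 and 0 FPKM after lncFABP4. Both were tested only in the alternative with no filter on low values, which called neither (log2 -0.079 and -0.042, limma adjusted p = 0.570 and 0.627).

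In the upper pathway, from hexokinase to the triose phosphates, 2 of 8 tested models rose (25%, beside 16.5% of all models). Another 6 were not called, and the median log2 change was -0.095. By limma 0 of the 8 fell, and 1 was lower at an unadjusted p under 0.05. HK1, the hexokinase found in most tissues, rose from 53.3, 53.0 and 50.5 FPKM to 60.3, 65.0 and 66.2 FPKM. The groups did not overlap, and the log2 change was 0.28 (SE 0.07, limma adjusted p = 0.0187). That call was lost without EGFP replicate 1, EGFP replicate 3, lncFABP4 replicate 2 or lncFABP4 replicate 3 (limma adjusted p from 0.0514 to 0.0860). It was also lost with quantile scaling (limma adjusted p = 0.0855) and without replicate number 2 or 3 of both groups (0.0969 and 0.252). HK2, the isozyme known from muscle and fat, stood at 5.62 to 7.21 FPKM and 4.92 to 6.61 FPKM, with a change of -0.095 (interval from -0.38 to 0.19, limma adjusted p = 0.602).

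TPI1 encodes triose phosphate isomerase, which interconverts both products of the split sugar. It stood at 577, 512 and 538 FPKM in the EGFP and 677, 693 and 742 FPKM in the lncFABP4 samples, so every lncFABP4 sample was above every control. Its rise was 0.38 (SE 0.07, limma adjusted p = 0.00732) and held without any single library. It was not called without replicate number 2 or 3 of both groups (limma adjusted p = 0.0688 and 0.130). GPI, the glucose phosphate isomerase, was at 723 to 793 FPKM and then 688 to 720.2 FPKM. These groups did not overlap, yet the change of -0.12 (interval from -0.26 to 0.03, limma adjusted p = 0.215) was not called. ALDOA, the main aldolase, stood at 321, 252 and 312 FPKM and then at 269, 260.2 and 249.6 FPKM, with EGFP replicate 2 among the lncFABP4 values. Its change of -0.18 (limma adjusted p = 0.216) was called only without that library (log2 -0.29, limma adjusted p = 0.0268).

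Phosphofructokinase is the main control point of glycolysis, and by limma 0 of its 3 subunit genes were called, with 1, PFKM, at an unadjusted p under 0.05. The liver-type gene PFKL was at 69.1 to 76.5 FPKM in the controls and 71.6 to 74.0 FPKM after lncFABP4 (log2 0.014, interval from -0.14 to 0.17, limma adjusted p = 0.891). The platelet-type gene PFKP was at 32.2 to 36.8 and 30.0 to 36.4 FPKM (-0.096, interval from -0.31 to 0.12, limma adjusted p = 0.476). The muscle-type gene PFKM was at 9.13 to 11.9 and 6.98 to 9.20 FPKM (-0.31, interval from -0.60 to -0.02, limma adjusted p = 0.108). PFKFB3 encodes the enzyme that makes the strongest allosteric activator of phosphofructokinase. It stood at 83.2, 70.6 and 78.4 FPKM in controls, against 55.9, 45.3 and 49.5 FPKM in the lncFABP4 samples, again without overlap. Its fall was -0.62 on the log2 scale (SE 0.10, limma adjusted p = 0.00352), or from 77.4 ± 6.37 to 50.2 ± 5.31 FPKM (SD, n = 3). It held without any single library and was lost only without replicate number 3 of both groups (limma adjusted p = 0.0676).

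**Figure D2:**
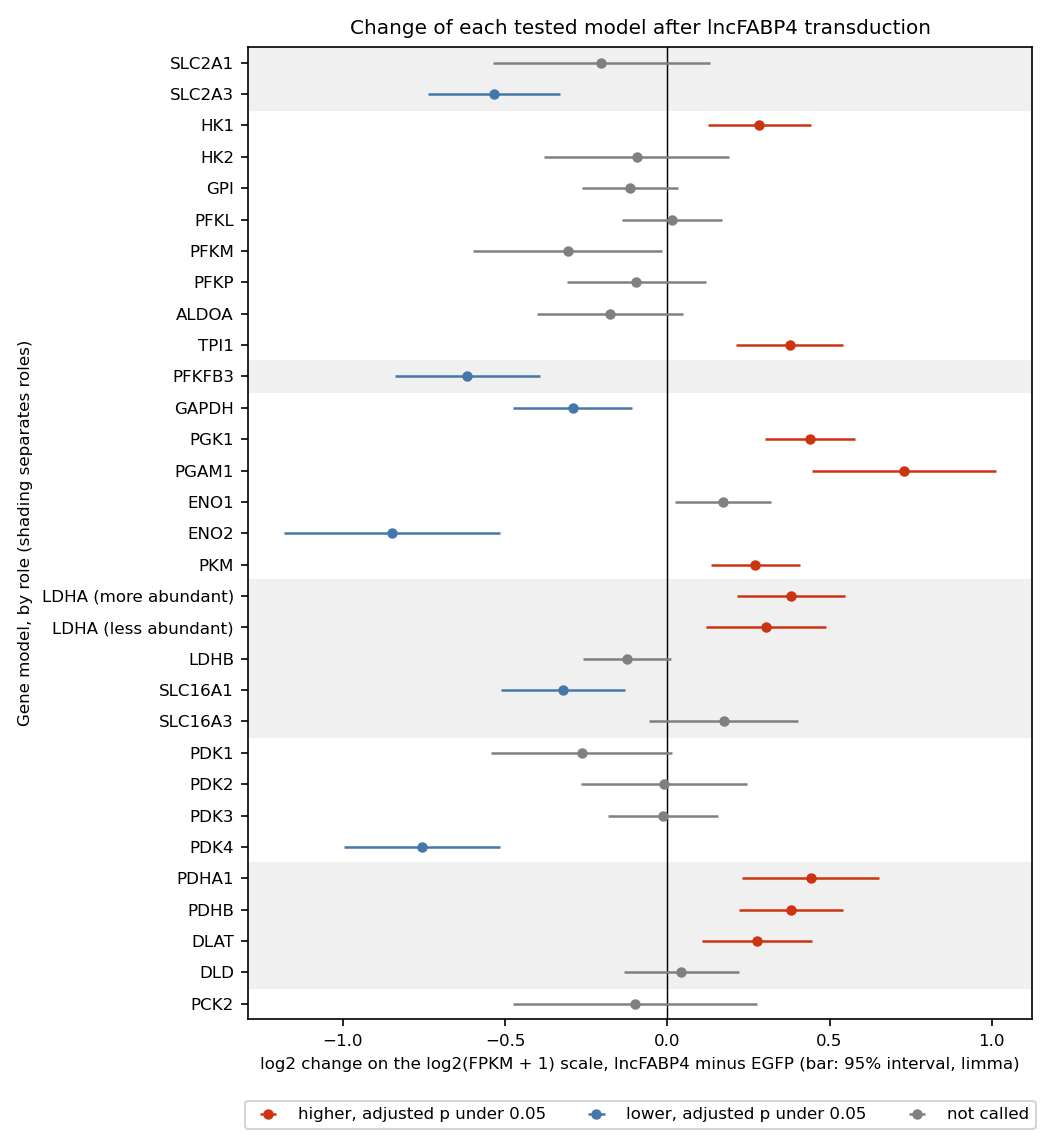
Change of each tested model, lncFABP4 minus EGFP, on the log2(FPKM + 1) scale, with the 95% interval from limma over 3 samples per group. The 10 models that rose lie to the right, led by PGAM1 at 0.73, and the 6 that fell to the left, led by ENO2 at -0.85.

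From the triose phosphates to pyruvate, 3 of 6 tested models rose (50%), 2 fell (33.3%) and 1 was not called (median log2 change 0.22). Over all models 16.5% rose and 10.2% fell. PGAM1, phosphoglycerate mutase, had the largest rise of the set. It stood at 309.9, 364 and 249.8 FPKM in controls, against 497, 511 and 508 FPKM after lncFABP4. The control values were widely spread, yet each lay below all 3 lncFABP4 values. The log2 change was 0.73 (SE 0.12, limma adjusted p = 0.00447), from 308 ± 57.1 to 506 ± 7.50 FPKM (SD, n = 3), and the call was kept in every alternative setting tried.

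PGK1, phosphoglycerate kinase, makes the first ATP of the pathway. Its values were close within each group, 174, 177 and 173 FPKM in the controls and 230.3, 237 and 244 FPKM after lncFABP4, and the log2 change was 0.44 (SE 0.06, limma adjusted p = 0.00205). The call held without any single library and was lost only without replicate number 3 of both groups (limma adjusted p = 0.0712). PKM, the pyruvate kinase of most tissues outside the liver, catalyses the last step. It stood at 835, 799.8 and 783 FPKM and then at 970.3, 974 and 974 FPKM, without overlap. This smaller change of 0.27 (SE 0.06, limma adjusted p = 0.0130) was not called without EGFP replicate 3, lncFABP4 replicate 2 or lncFABP4 replicate 3 (limma adjusted p from 0.0552 to 0.0605), nor without a filter on low values (0.0571).

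The enolase genes had estimates of opposite sign. ENO1, the enolase of most tissues, stood at 934, 943 and 870.1 FPKM in the controls and 1056, 1040.4 and 995 FPKM after lncFABP4. These groups did not overlap, but the change of 0.17 (interval from 0.02 to 0.32, limma adjusted p = 0.0851) was not called, although quantile scaling called it (log2 0.26, limma adjusted p = 0.0286). ENO2, known as neuron-specific enolase, fell from 8.98, 8.68 and 10.1 FPKM to 6.03, 3.71 and 4.56 FPKM. It was the largest fall of the set, -0.85 (SE 0.15, limma adjusted p = 0.00470), and was lost only without replicate number 3 of both groups (limma adjusted p = 0.0746). By model number ENO2 and TPI1 are separated by a single model, that of SPSB2. The RefSeq annotation of the buffalo assembly NDDB_SH_1 also places TPI1 next to SPSB2, but it places ENO2 between LRRC23 and ATN1. These near neighbours by model number moved in opposite directions.

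GAPDH, the triose phosphate dehydrogenase that is often used as a reference gene, stood at 1239.9, 1034 and 1153 FPKM in controls, against 955, 942 and 898 FPKM after lncFABP4. All lncFABP4 values lay below the controls, and the log2 change was -0.29 (SE 0.08, limma adjusted p = 0.0296). This call was among the least firm: it was lost without EGFP replicate 1, EGFP replicate 3, lncFABP4 replicate 2 or lncFABP4 replicate 3 (limma adjusted p from 0.0817 to 0.112), with quantile scaling (log2 -0.19, limma adjusted p = 0.0619) and without a filter on low values (0.105). Its direction held in all settings tried. The place of this model is also uncertain. It is numbered on chromosome 16, with neighbours RPL11 and PAFAH1B2, whereas the RefSeq annotation of NDDB_SH_1 puts GAPDH between NCAPD2 and IFFO1. The deposited models with these names are on chromosome 4. NCAPD2 is numbered 1094 and IFFO1 1093 and 1092, with no model between the names. The other models named GAPDH were at 0.149, 0.151 and 0 FPKM (neighbours KIF21A and CPNE8) and at 0.0510, 0.0418 and 0 FPKM (neighbours EWSR1 and EVA1A) in the controls, and at no more than 0.0436 FPKM after lncFABP4. Which copies supplied the reads counted on the abundant model is not known.

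Among the lactate genes, 2 of 5 tested models rose (40%), 1 fell (20%) and 2 were not called, beside 16.5% higher and 10.2% lower of all models. Both that rose carry the name LDHA. The more abundant one stood at 2056, 2088 and 2005 FPKM in controls, against 2458, 2749.9 and 2819.9 FPKM in the lncFABP4 samples, and the lowest lncFABP4 value, that of replicate 1, was still above every control. It took 0.567% to 0.614% of all FPKM in controls, against 0.681% to 0.801% after lncFABP4. Its log2 change was 0.38 (SE 0.07, limma adjusted p = 0.00708) and reached 0.66 with quantile scaling; the call was not kept with no filter on low values (0.0696) and without replicate number 2 or 3 of both groups (0.0780 and 0.132). This model lies next to that of LDHC, the testis-type subunit gene.

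The less abundant LDHA model lies between MAP3K20 and RAPGEF4 by number and was at 12.02, 13.2 and 12.7 FPKM and then at 14.9, 16.7 and 16.0 FPKM. It rose by 0.30 on the log2 scale (SE 0.08, limma adjusted p = 0.0255), a change lost without EGFP replicate 1, EGFP replicate 3, lncFABP4 replicate 2 or lncFABP4 replicate 3 (limma adjusted p from 0.0724 to 0.0979) and with TMM, quantile and median-of-ratios scaling (0.0522 to 0.0605). Models that share a name can share reads, so it is no independent evidence for LDHA. LDHB, the subunit that favours the oxidation of lactate, was at 287, 293 and 287 FPKM and then at 259.6, 263 and 272 FPKM. Its groups did not overlap, but the change of -0.13 (interval from -0.26 to 0.01, limma adjusted p = 0.149) was not called.

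Lactate leaves or enters cells through monocarboxylate transporters. SLC16A1, which encodes MCT1, fell from 67.4, 69.2 and 64.3 FPKM to 47.9, 56.1 and 56.6 FPKM, with lncFABP4 replicate 1 the lowest. Its log2 change of -0.32 (SE 0.08, limma adjusted p = 0.0243) was not called without EGFP replicate 1, 2 or 3 (limma adjusted p from 0.0529 to 0.0748). A second model of that name stayed at or below 0.0528 FPKM. SLC16A3 encodes MCT4, the exporter of strongly glycolytic cells, and stood at 23.8 to 29.8 and 28.1 to 30.8 FPKM. These groups overlapped, and the change of 0.17 (interval from -0.06 to 0.40, limma adjusted p = 0.228) was not called.

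At the pyruvate dehydrogenase step, which commits pyruvate to oxidation, 3 of 4 subunit models of the complex rose by limma (75%, beside 16.5% of all models). Of its 4 kinases 1 fell (25%, beside 10.2% of all models). By limma 0 subunits were lower and 0 kinases higher, also at an unadjusted p under 0.05. PDHA1 and PDHB encode the subunits of the decarboxylase component. PDHA1 stood at 12.2, 15.2 and 13.7 FPKM in controls, against 18.3, 19.6 and 18.8 FPKM in the lncFABP4 samples, or 0.44 on the log2 scale (SE 0.09; limma adjusted p = 0.0104). PDHB stood at 19.6, 20.3 and 21.3 FPKM and then at 26.9, 26.5 and 27.3 FPKM, a change of 0.38 (SE 0.07, limma adjusted p = 0.00602). In neither gene did the groups overlap, and both calls held without any single library and were lost without replicate number 3 of both groups (limma adjusted p = 0.117 and 0.0919). DLAT, the acetyltransferase component, stood at 20.8, 23.1 and 22.9 FPKM and then at 27.2, 27.9 and 26.4 FPKM. Its rise of 0.28 (SE 0.07, limma adjusted p = 0.0269) was lost with TMM, quantile and median-of-ratios scaling (limma adjusted p from 0.0563 to 0.0820) and without EGFP replicate 1, EGFP replicate 3, lncFABP4 replicate 2 or lncFABP4 replicate 3 (0.0631 to 0.0966). DLD, the dehydrogenase component that this complex shares with other mitochondrial complexes, was at 23.8 to 27.6 and 26.2 to 26.9 FPKM (0.043, interval from -0.13 to 0.22, limma adjusted p = 0.706). The estimate for DLD lay below 0 under TMM, median-of-ratios and quantile scaling.

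PDK4, the kinase known to be induced by fasting, fatty acids and glucocorticoids, was the most abundant of the pyruvate dehydrogenase kinases and fell. It stood at 57.9, 72.2 and 73.3 FPKM in controls, against 36.6, 41.8 and 40.1 FPKM in the lncFABP4 samples, without overlap. The mean went from 67.8 ± 8.62 to 39.5 ± 2.64 FPKM (SD, n = 3), or -0.76 on the log2 scale (SE 0.10; limma adjusted p = 0.00211), and the call was kept in every alternative setting tried. The other kinases were not called and their groups overlapped. PDK1 was at 11.3 to 13.4 and 8.43 to 11.6 FPKM (-0.26, interval from -0.54 to 0.02). PDK2 was at 11.5 to 13.9 and 11.2 to 14.6 FPKM (-0.011, interval from -0.27 to 0.25), and PDK3 at 9.09 to 9.38 and 9.03 to 9.35 FPKM (-0.013, interval from -0.18 to 0.16).

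The phosphoenolpyruvate carboxykinases run the reverse direction, towards glucose or the glycerol backbone of fat. PCK1, the cytosolic enzyme, was listed at 0.0277, 0 and 0.0356 FPKM in controls, against 0.0368, 0 and 0 FPKM in the lncFABP4 samples. It was tested only with no filter on low values and was not called (log2 -0.013, limma adjusted p = 0.796). PCK2, its mitochondrial counterpart, was at 9.93, 9.17 and 11.8 FPKM and then at 12.6, 8.20 and 8.23 FPKM. In lncFABP4 replicate 1 it was above every control and in the other two below every control. The change of -0.10 (interval from -0.48 to 0.28, limma adjusted p = 0.679) was not called.

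Shares within isozyme families, from FPKM summed over the models of each name, set the members of a family against each other in the same library. With 3 samples against 3, an exact two-sided permutation test over samples cannot go below 0.1, so none of the 12 shares computed could pass 0.05. PDK4 made up 63.5%, 66.8% and 68.0% of the kinase sum in the EGFP samples and 53.4%, 56.5% and 55.4% in the lncFABP4 samples. The groups did not overlap, with a difference of -11.0 percentage points (exact permutation p = 0.1, adjusted p = 0.171 over the 12 shares). LDHA made up 87.55% to 87.8% of LDHA plus LDHB in the controls and 90.5% to 91.3% after lncFABP4, a difference of 3.31 points with the same p values. MCT4 took 25.6% to 30.6% of the sum of both transporter genes and then 33.4% to 37.3%, a difference of 7.53 points. The share of HK2 in both hexokinases was 10.0% to 11.9% and then 7.54% to 9.22%, and that of ENO2 in both enolases 0.913% to 1.15% and then 0.356% to 0.568%. These shares likewise did not overlap between the groups and stood at the lowest p the design allows. The phosphofructokinase shares overlapped, with PFKL the main gene at 59.2% to 63.4% and 61.1% to 66.7%, and so did the share of SLC2A3 among both transporters, at 98.3% to 98.6% and 97.9% to 98.5%.

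**Figure D3:**
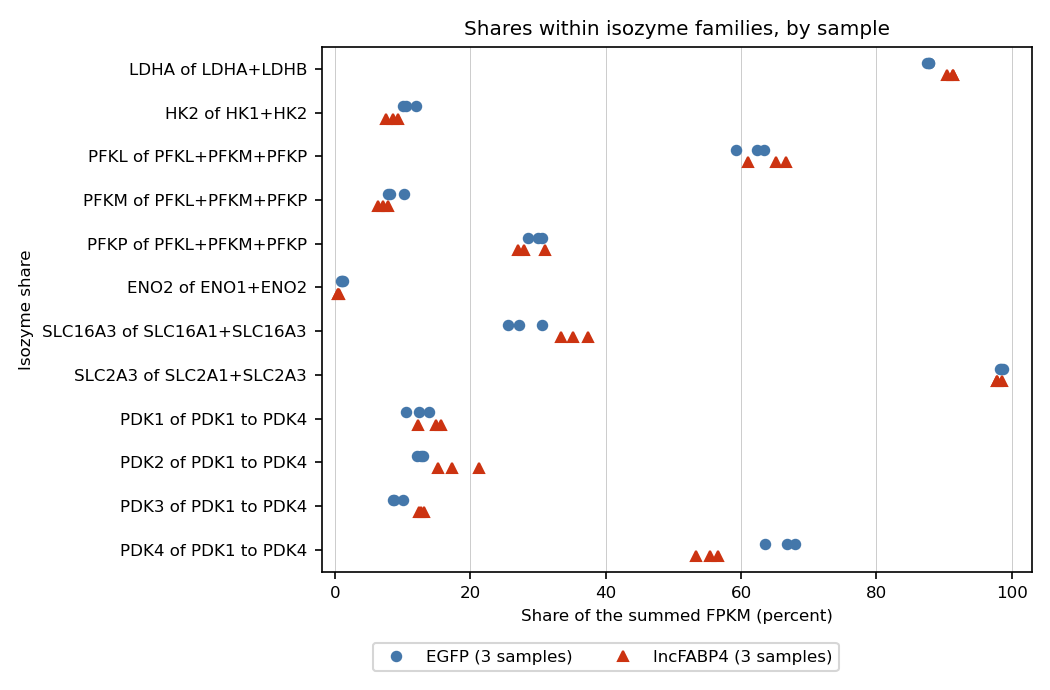
Share of each isozyme in its family's summed FPKM, in percent, for each of 3 EGFP samples (circles) and 3 lncFABP4 samples (triangles). PDK4 lies at 63.5% to 68.0% in the controls and 53.4% to 56.5% after lncFABP4, whereas the PFKL, PFKM and PFKP shares overlap.

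Summed along the route, the enzymes from hexokinase to pyruvate kinase came to 5358, 4986 and 5055 FPKM in controls, against 5563, 5532 and 5505 FPKM after lncFABP4, while the listed glucose transporters summed to 651, 717 and 574 FPKM and then to 432, 464 and 445 FPKM. The kinases of pyruvate dehydrogenase summed to 91.2, 108 and 108 FPKM and then to 68.7, 74.0 and 72.5 FPKM. The subunits of the complex went the other way, from 76.5, 86.1 and 83.9 FPKM to 98.6, 100.5 and 99.4 FPKM. These sums are descriptions, were not tested and were not computed under the other scalings. The groups overlapped in none of them, but those of the glycolytic enzymes were narrowly apart, at 5358 against 5505 FPKM. That sum includes the GAPDH model of uncertain place.

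Genes around the route were counted list by list, beside 16.5% higher and 10.2% lower of all models. The lists were chosen with earlier results of these data known, and nothing particular to them is drawn from such counts. Of 13 tested models of other sugar carriers and isozymes, 4 rose (30.8%) and 1 fell (7.69%), with a median log2 of -0.053. SLC2A6, a lysosomal glucose transporter, went from 3.11 ± 0.289 to 5.58 ± 0.471 FPKM (SD, n = 3; log2 0.68, limma adjusted p = 0.00256), and the urate carrier SLC2A9 from 4.83 to 8.11 FPKM (0.64, limma adjusted p = 0.00603). SLC2A13, the proton-coupled inositol carrier, fell from 16.5 ± 2.26 to 8.89 ± 1.31 FPKM (-0.83, limma adjusted p = 0.00370). The others that rose, named after their values were seen, were TIGAR (log2 0.54), a phosphatase that lowers the activator made by PFKFB3, and the muscle enolase ENO3 (1.57). ENO3 was at 4.85, 1.504 and 0.875 FPKM in the controls and at 6.49, 9.64 and 8.10 FPKM after lncFABP4, with EGFP replicate 1 the highest control but still below them.

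On the pyruvate side, 1 of 12 models of other entry and gluconeogenesis genes rose (8.33%) and 2 fell (16.7%), with a median log2 of -0.052. Over all models 16.5% rose and 10.2% fell. PDHX, which tethers the dehydrogenase component to the pyruvate dehydrogenase complex, stood at 21.1, 21.3 and 22.4 FPKM and then at 30.1, 29.0 and 29.3 FPKM (log2 0.43, limma adjusted p = 0.00336). It thus moved with PDHA1, PDHB and DLAT. PDPR, a regulator of the phosphatase that reactivates the complex, fell from 7.83 to 6.17 FPKM (-0.30, limma adjusted p = 0.0423), a call lost when any library but lncFABP4 replicate 1 was dropped (limma adjusted p from 0.0608 to 0.157). The mitochondrial malic enzyme ME3 fell from 3.51 to 2.24 FPKM (-0.48, limma adjusted p = 0.0151), a call lost without EGFP replicate 1 or lncFABP4 replicate 3 (0.0556 to 0.0624). MPC1, a subunit of the mitochondrial pyruvate carrier, was at 15.3 to 19.6 FPKM and 18.7 to 23.6 FPKM and was not called (log2 0.24, limma adjusted p = 0.162).

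Branches that draw on glycolytic intermediates were examined in the same way. In the pentose phosphate pathway, models moved in both directions. TALDO1, the transaldolase, rose from 102 ± 9.18 to 144 ± 1.01 FPKM (0.49, limma adjusted p = 0.00384), while the transketolase gene TKT fell from 184 ± 12.7 to 140.5 ± 14.98 FPKM (-0.39, limma adjusted p = 0.0169), a call lost without EGFP replicate 3, lncFABP4 replicate 2 or lncFABP4 replicate 3 (0.0607 to 0.0704).

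In glycogen metabolism 5 of 13 models rose (38.5%, beside 16.5% of all models) and 0 fell by limma, with 1 lower at an unadjusted p under 0.05. The median log2 was 0.27. The list had 3 models higher without lncFABP4 replicate 2, 3 without lncFABP4 replicate 3, and 0 without replicate number 2 or 3 of both groups. Its leading members were a model of the phosphorylase PYGL (log2 0.34, limma adjusted p = 0.00928), the synthase GYS1 (0.43, limma adjusted p = 0.0126) and the phosphorylase PYGB (0.36, limma adjusted p = 0.0127). A second model named PYGL was not called (0.19, limma adjusted p = 0.210). Among NADH shuttle and glycerol phosphate genes 2 of 10 rose (20%) and 0 fell by limma (0 lower at an unadjusted p under 0.05). Those that rose were the mitochondrial malate dehydrogenase MDH2 (log2 0.47, limma adjusted p = 0.00402) and GPD1L, related to glycerol phosphate dehydrogenase (0.57, limma adjusted p = 0.0106). In the hexosamine pathway 0 of 9 rose by limma (0 higher at an unadjusted p under 0.05) and 1 fell (11.1%, beside 10.2% of all models). The one that fell was UAP1, which makes the pathway's sugar nucleotide. Its change of -0.34 (limma adjusted p = 0.0216) was lost without EGFP replicate 2, EGFP replicate 3 or lncFABP4 replicate 2 (0.0537 to 0.0641).

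Transcriptional regulators of glycolysis formed one list, and other targets of the hypoxia-inducible factors (HIF), which act on many glycolytic genes, formed another. The regulator list is not confined to HIF genes. In both lists the calls were in the downward direction. Of 17 regulator models 0 rose and 4 fell by limma (23.5%, beside 10.2% of all models), with 2 higher at an unadjusted p under 0.05. Their median log2 change was 0.0071. Of 15 models of other HIF targets 0 rose and 6 fell (40%, beside 10.2% of all models), with 1 higher at an unadjusted p under 0.05. Their median was -0.15. Over all models 16.5% rose. Both lists were chosen with earlier results of these data known, and nothing particular to them is drawn from such counts. TXNIP, a glucose-induced gene whose protein restrains glucose uptake, stood at 87.7, 99.1 and 99.8 FPKM in controls, against 49.99, 40.9 and 40.7 FPKM in the lncFABP4 samples (log2 -1.11, SE 0.10, limma adjusted p = 0.000419). ARRDC4, its close relative and likewise induced by glucose, stood at 30.6, 36.1 and 29.1 FPKM and then at 15.2, 13.9 and 12.5 FPKM (-1.15, SE 0.11, limma adjusted p = 0.000480). Both fell without any overlap of the groups. EGLN3, an oxygen-sensing hydroxylase, fell from 5.90 to 3.42 FPKM (-0.64, limma adjusted p = 0.00728). MLXIPL, the gene of the glucose-sensing factor ChREBP, named after its values were seen, fell from 5.68 to 4.09 FPKM (-0.39, limma adjusted p = 0.0152), a call lost without EGFP replicate 1, EGFP replicate 3, lncFABP4 replicate 2 or lncFABP4 replicate 3 (0.0512 to 0.0659).

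HIF1A itself, the oxygen-regulated subunit, was at 178 to 201 FPKM in the controls and 206 to 220.4 FPKM after lncFABP4. These values did not overlap, but its change of 0.20 (limma adjusted p = 0.0755) was not called. Of the other HIF targets, ADM, the vasoactive peptide adrenomedullin, stood at 623, 508 and 621 FPKM and then at 271, 209.8 and 217 FPKM (log2 -1.33, SE 0.12, limma adjusted p = 0.000419). CA9, a surface carbonic anhydrase, went from 4.91, 4.88 and 5.76 FPKM to 1.80, 1.69 and 1.59 FPKM (-1.20, SE 0.10, limma adjusted p = 0.000297), and the repressor BHLHE40 from 60.1 ± 1.83 to 40.1 ± 3.80 FPKM (-0.58, limma adjusted p = 0.00266). These genes and the members SLC2A3 and PFKFB3 were lower after lncFABP4, while PGK1 and LDHA, which are known HIF targets too, were higher. VEGFA, another target, was at 91.9 to 109.96 FPKM and 93.7 to 101 FPKM and was not called (-0.063, limma adjusted p = 0.598). The list of other HIF targets had 3 to 6 models lower over all alternative settings, with 3 without replicate number 2 or 3 of both groups and 4 when EGFP replicate 1, EGFP replicate 3, lncFABP4 replicate 2 or lncFABP4 replicate 3 was left out.

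**Figure D4:**
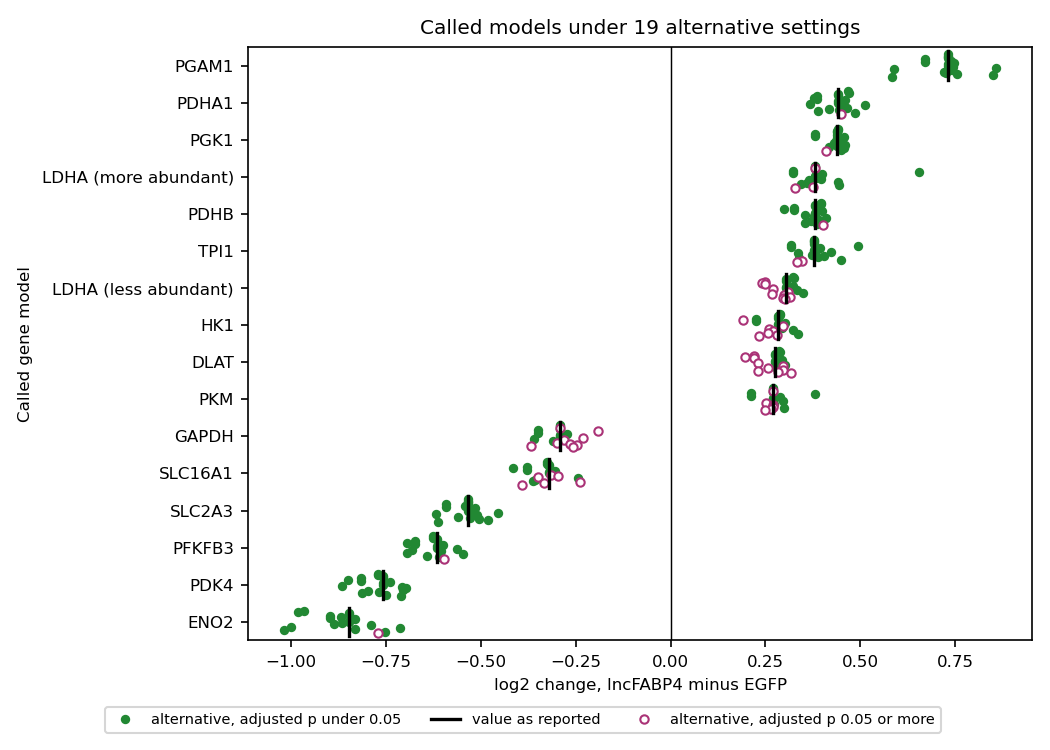
log2 change of the 16 called models under 19 alternative settings (filled points, adjusted p under 0.05; open points, 0.05 or more), with the value as reported as a black bar. No point crosses 0, and SLC2A3, PDK4 and PGAM1 have filled points only, whereas GAPDH, DLAT and the less abundant LDHA model have many open ones.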

How the data were processed

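Polyadenylated RNA of 6 samples was sequenced on a DNBSEQ platform, per the labels' protocols. The submitters' processing notes name HISAT2 and StringTie, with no version; genome build and annotation were not given in the sources used here. The deposited table holds values per model and sample, which were read as FPKM: the authors' header names no unit, and the column totals differ; 4570 of 19476 models had no gene name. Depth is unknown beyond an estimate relative to EGFP replicate 1 from models under 0.3 FPKM, and no counts were recovered.

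The test ran on log2(FPKM + 1) over the 11064 models that reached 1 FPKM in 3 or more samples, with limma 3.58.1 in R 4.3.3. It was two-sided, used a mean-variance trend and no block, and took lncFABP4 minus EGFP. Adjusted p-values are Benjamini-Hochberg over all 11064. The script was tested on simulated data. Isozyme shares were compared with SciPy 1.17.1. The members and gene lists were chosen with earlier results of these data known. Every member is named; up to 3 models per other list with the smallest adjusted p under 0.05 are named. TIGAR, ENO3, MLXIPL, MPC1, HIF1A, VEGFA and the second PYGL model were added, outside that rule, once their values had been seen. Alternatives were smaller pseudocounts (0.1, 0.01), testing every model, a 5 FPKM minimum, 4 rescalings, a block, a robust variance model (statmod 1.5.0), samples left out and FPKM summed per name. RefSeq (NDDB_SH_1) was used for gene order only and held 35 of the 37 symbols. Promoter motifs were not analysed here. The counts of the pentose phosphate list are not reported here.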

Additional observations from a re-analysis of the deposited data

How the results depend on the processing

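With the other pseudocounts, a filter at 5 FPKM, rescaling without FABP4, the robust variance model and the replicate block, 10 member models were called higher and 6 lower, as reported. TMM and median-of-ratios factors gave 8 and 6, and quantile scaling and no filter 8 and 5. Leaving out samples moved the counts most: 1 to 10 models were higher and 2 to 6 lower. Without replicate number 3 of both groups 1 was higher and 2 were lower, and without number 2 there were 4 higher and 4 lower. Called models kept their direction in every setting. Some models that were not called changed sign. DLD did so with TMM, median-of-ratios and quantile scaling (log2 -0.014, -0.013 and -0.038), PFKL with the same scalings (-0.044, -0.043 and -0.080), and PDK2 and PDK3 when rescaled without FABP4 (0.00573 and 0.00309). Leaving out 1 sample gave -0.010 to 0.091 for DLD, -0.17 to 0.012 for HK2, -0.10 to 0.073 for PDK2 and -0.018 to 0.054 for PFKL. Leaving out a replicate number of both groups turned DLD (-0.00145), HK2 (0.093) and SLC2A1 (0.023) without number 1, PDK2 (0.087) and PFKL (-0.00156) without number 2, and PCK2 (0.085), PDK2 (0.052) and PFKL (-0.024) without number 3. The causes were not tested. No difference in isozyme share changed sign in the settings run. The labels do not say that replicate numbers pair the samples. Deviations of same-numbered samples from their group means correlated at 0.181, 0.291 and -0.077, and not every sample correlated best with its own number. With 3 samples per group such correlations cannot decide whether the numbers pair samples. The block raised the calls over all genes from 1827 to 2061 higher and from 1131 to 1275 lower and changed none among the members. The 6 member models below the filter were tested only with no filter (limma adjusted p from 0.184 to 0.848). Why they are low was not tested.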
